A study of Mus musculus with 6 samples.

Results

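RGS proteins (regulators of G protein signalling) shorten signals from G protein-coupled receptors. An activated receptor loads the G alpha subunit with GTP, and an RGS protein speeds the hydrolysis of that GTP so that G alpha rejoins G beta-gamma and the signal ends. In vascular smooth muscle, receptors for angiotensin, thrombin, endothelin and noradrenaline act through G proteins to raise calcium and tone, and RGS proteins are known to limit these responses. The genes described are Rgs2, Rgs3, Rgs4, Rgs5, Rgs10, Rgs12, Rgs16, Rgs17 and Rgs19, taken by name from a table of transcript levels, with the transcripts of each gene summed. They are 9 of 11808 genes, and 20 of 23242 transcripts. The set was chosen from measured values of the same libraries, since a gene is in the table where the mean of at least 1 group lies above 0.5 FPKM (fragments scaled to transcript length and library size), and since Rgs4 was already known as a gene with a large difference. The differences of these 9 genes between the groups are therefore given as a description, with no test of their own.

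The cells were primary vascular smooth muscle cells isolated with collagenase from male C57BL/6 mice 6 weeks old, which the labels appear to number 12. All cells carried the WT genotype and grew in α-MEM with 10% FBS, the normal growth medium. In the siScrambled group (3 libraries) they received a control siRNA, and in the siSirt7 group (3 libraries) an siRNA against Sirt7, the gene of a nuclear NAD-dependent deacylase, each at 20 nM for 48 h. Nothing in the labels ties a group's 3 libraries to separate cell isolations or wells, so the p-values reflect library-to-library spread, part or all of which may be technical. Transcript values of a library summed to between 321944 and 333683 FPKM, and the number of reads behind them is unknown. Sirt7 stood at 4.35, 3.55 and 4.48 FPKM in siScrambled replicates 1, 2 and 3 and at 0.96, 1.25 and 0.36 FPKM in siSirt7 replicates 1, 2 and 3 (log2 fold change -1.49, SE 0.20, limma adjusted p = 0.00388).

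Smooth muscle markers had the highest summed level of the marker lists, markers of adventitial fibroblasts were also well measured, and those of endothelium and lymphocytes were low or not listed. Of 8 smooth muscle markers 7 were listed, without Myocd, and they summed to between 2780 and 2820 FPKM in siScrambled and between 2440 and 2650 FPKM in siSirt7. Of 8 endothelial markers only Erg was listed, at 2.64 to 4.43 FPKM over the 6 libraries, with Pecam1, Cdh5, Tek, Kdr, Vwf, Emcn and Tie1 not in the table. None of 7 lymphocyte markers was listed, and 5 of 8 macrophage markers, without Ptprc, Adgre1 and Itgam, summed to 19.3 to 22.8 FPKM and 21.5 to 24.3 FPKM. All 8 adventitial fibroblast markers were listed, summing to 454 to 470 FPKM in siScrambled and 484 to 516 FPKM in siSirt7. They did not move as 1: of 6 tested, Lum rose and Pdgfra and Dpt fell (limma adjusted p = 0.048, 0.016 and 0.0485). The remaining 3 were not called at an adjusted p under 0.05. Of 6 neural markers 3 were listed, at 9.59 to 12.1 FPKM and 8.86 to 9.89 FPKM.

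The sequences shown first are sites in the 3' UTRs of Rgs4, Rgs5 and Rgs17. They hold short words that earlier results of these data had tied, over all genes, to fold changes, so the words are not independent of the values below. In those earlier results, lower fold changes went with the word ATATGTA, with the related word TATGTAA and with the core TATGTA that they share. Higher fold changes went there with the word CGGAGAA. Neither link was tested here. Each line gives 30 bases of the transcript strand, 5' to 3', in the GENCODE vM21 annotation of GRCm38, with the word in capitals.
Rgs4 site 1, chr1:169743247-169743276, minus strand: tttgtgtatgcATATGTAtacattaaaata
Rgs4 site 2, chr1:169743159-169743188, minus strand: aatgtgcatgaATATGTAtctatctatcta
Rgs4 site 3, chr1:169743139-169743168, minus strand: tatctatctatATATGTAtatactgacaca
Rgs4 site 4, chr1:169742920-169742949, minus strand: ctgggtcttggCGGAGAAtagccagggcct
Rgs5 site, chr1:169695737-169695766, plus strand: actttgcctagTATGTAActcactcttact
Rgs17 site, chr10:5825694-5825723, minus strand: cttcacattgtTATGTAAcattagagtacc

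Rgs4 holds ATATGTA 3 times, at positions 416, 504 and 524 of a 3' UTR of 2204 bases, and the windows of sites 2 and 3 overlap. The core TATGTA occurs 4 times there, once outside ATATGTA, and CGGAGAA occurs 1 time. Rgs5 holds TATGTAA 1 time, 3408 bases into a 3' UTR of 3473 bases, and the core 4 times in all. Rgs17 holds the same counts in 7290 bases. Rgs2 and Rgs12 hold the core 1 time each, and none of the 4 words is in the searched 3' UTRs of Rgs3, Rgs10, Rgs16 and Rgs19, which run from 275 bases in Rgs10 to 1613 bases in Rgs16. Over 9597 tested genes with a matched 3' UTR, 15.8% hold ATATGTA, 15.2% TATGTAA, 36.2% TATGTA and 2.20% CGGAGAA. The words were searched on the transcript strand, in the most abundant listed transcript of each gene, and a longer 3' UTR holds more words of any kind.

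**Figure D1:**
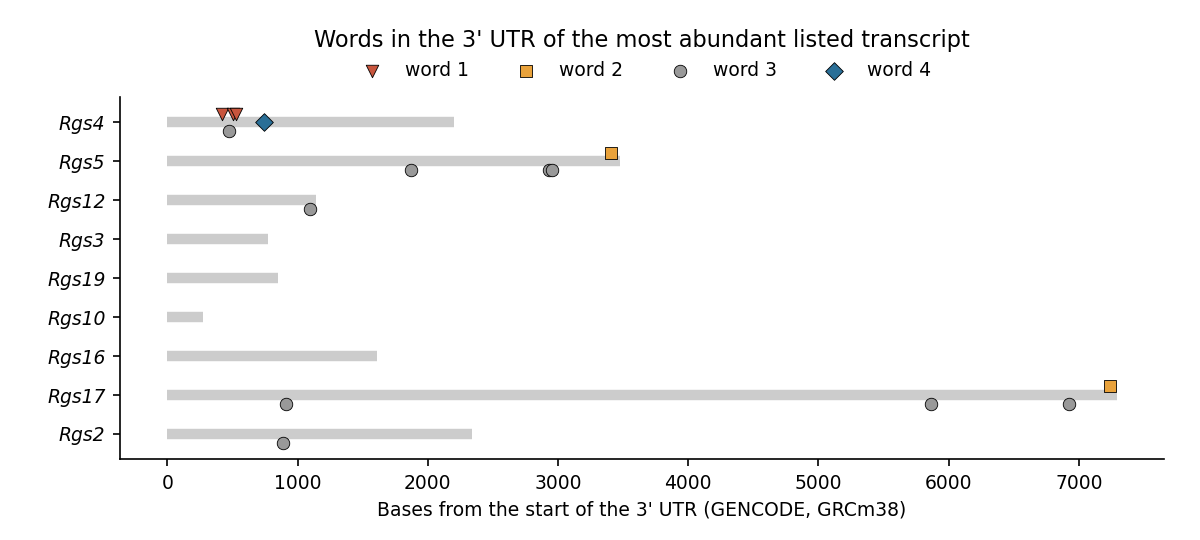
Positions of 4 sequence words along the 3' UTR of each RGS gene, in bases from its start; grey bars give the UTR length. Word 1 is ATATGTA, word 2 is TATGTAA without ATATGTA, word 3 is the core TATGTA alone and word 4 is CGGAGAA; Rgs4 holds 3 sites of word 1 close together between positions 416 and 524.

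The genes differed widely in level. Rgs5, a marker of pericytes and vascular smooth muscle, was by far the most abundant, at 250.7, 262.1 and 255.1 FPKM in siScrambled replicates 1, 2 and 3, above 98.0% of tested genes by its mean over the 6 libraries. In siScrambled the order by mean level was Rgs5, Rgs10 (36.5 FPKM), Rgs4 (27.2), Rgs19 (18.3), Rgs16 (10.9), Rgs3 (6.61), Rgs12 (6.25), Rgs17 (0.638) and Rgs2 (0.497). The ranges of neighbours in this order were apart except for Rgs3 with Rgs12 and Rgs17 with Rgs2. In siSirt7 the order was Rgs5 (191), Rgs10 (39.2), Rgs19 (18.8), Rgs16 (17.1), Rgs4 (8.78), Rgs3 (6.48), Rgs12 (5.42), Rgs17 (1.18) and Rgs2 (0.552), and the ranges of Rgs19 and Rgs16, and of Rgs3 and Rgs12, overlapped. Rgs4 thus stood at rank 3 in siScrambled and at rank 5 in siSirt7.

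**Figure D2:**
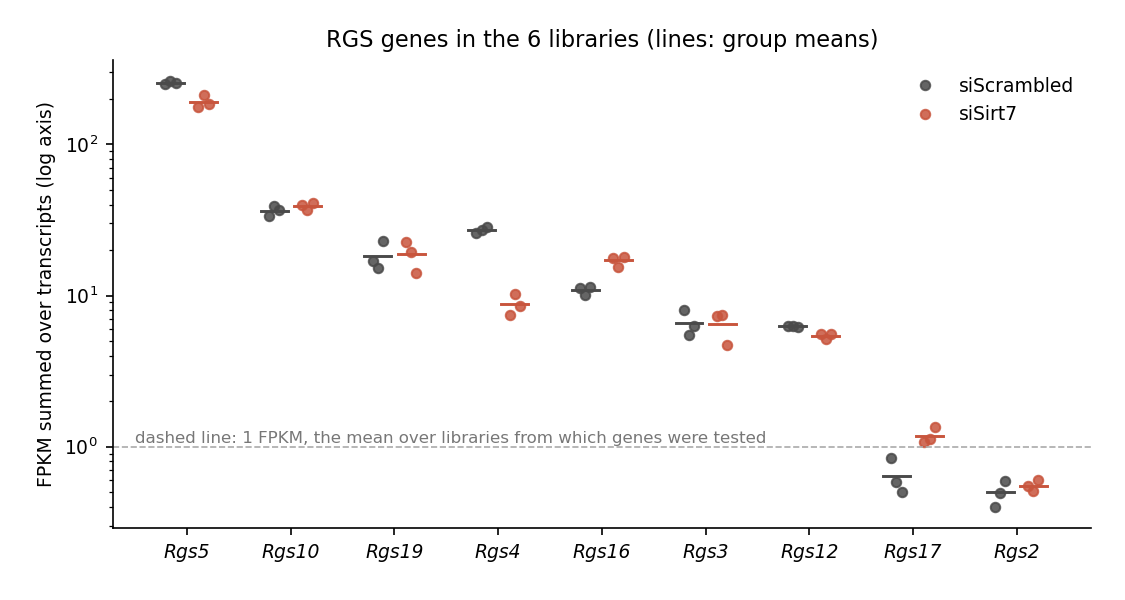
FPKM of each RGS gene in the 6 libraries on a log axis, with 3 siScrambled (grey) and 3 siSirt7 (red) libraries as points and group means as lines. Rgs4 and Rgs5 lie lower in siSirt7, Rgs16 lies higher, and the points of Rgs10, Rgs19 and Rgs3 overlap between the groups.

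Of the 9 genes, 7 averaged 1 FPKM or more across the libraries and entered the fit across all genes, while Rgs17 and Rgs2 did not. In that fit (limma on log2 of FPKM + 1, 10854 genes, adjusted p under 0.05) 25.2% of genes were called, 12.7% higher and 12.5% lower in siSirt7. Rgs16 was called higher and Rgs4 and Rgs5 lower, and the other 4 were not called. The ranges of the groups did not overlap for 4 of the 7, Rgs4, Rgs5, Rgs16 and Rgs12, and did not overlap for 43.9% of all tested genes. Since the set was chosen with these values known, nothing is read from these counts.

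Rgs4, Rgs5, Rgs16, Rgs2 and Rgs3 belong to the R4 subfamily, most of whose members are small proteins with little beyond the RGS domain. Rgs4, which acts on Gi and Gq, stood at 26.07, 27.26 and 28.37 FPKM in siScrambled replicates 1, 2 and 3 and at 7.46, 10.28 and 8.59 FPKM in siSirt7 replicates 1, 2 and 3. Each siSirt7 library was far below each siScrambled library. The means were 27.2 ± 1.15 and 8.78 ± 1.42 FPKM (SD, n = 3), a level 3.10-fold lower in siSirt7 (log2 fold change -1.54, SE 0.11, 95% interval -1.80 to -1.28). By log2 fold change of FPKM + 1 it stood at rank 3 from the lowest of the 10854 tested genes, and at rank 21 by size in either direction. That scale understates the falls of low genes, such as Sirt7, which was 4.82-fold lower by group mean and stood at -1.49.

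Rgs5, which also acts on Gi and Gq, had values of 177.1, 212.1 and 184.7 FPKM in siSirt7 replicates 1, 2 and 3, all below the siScrambled values given above. The means were 256 ± 5.78 and 191 ± 18.4 FPKM, a 1.34-fold lower level (log2 fold change -0.42, SE 0.07, 95% interval -0.59 to -0.26). Of 8 pericyte markers 7 were listed, without Higd1b, and they summed to 170 to 171 FPKM in siScrambled and 161 to 165 FPKM in siSirt7. Mcam and Cspg4 fell (adjusted p = 0.000534 and 0.0169), Kcnj8 and Abcc9 rose (adjusted p = 0.00822 and 0.0222), and 3 passed neither way in the limma fit. Of the 7 listed smooth muscle markers, Tagln, Cnn1 and Smtn fell, by 0.29, 0.39 and 0.39 on the log2 scale (limma adjusted p = 0.00243, 0.00259 and 0.00297). The other 4 were not called, with log2 fold changes of -0.03 for Acta2, 0.02 for Des, -0.13 for Myh11 and -0.12 for Lmod1 (limma adjusted p = 0.603, 0.856, 0.122 and 0.0854). The part of these marker levels in the Rgs5 result was not tested, and in bulk RNA fewer cells of a type and less RNA per cell cannot be told apart.

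Rgs16, another R4 member with action on Gi and Gq, was at 11.20, 10.06 and 11.43 FPKM in siScrambled replicates 1, 2 and 3 and at 17.67, 15.44 and 18.05 FPKM in siSirt7 replicates 1, 2 and 3. All siSirt7 values were above all siScrambled values. The means were 10.9 ± 0.732 and 17.1 ± 1.41 FPKM, a 1.57-fold higher level (log2 fold change 0.60, SE 0.08, 95% interval 0.41 to 0.80). The direction was thus opposite to that of Rgs4 and Rgs5. The ratio of Rgs16 to Rgs4 FPKM was 0.400 ± 0.0303 in siScrambled and 1.99 ± 0.444 in siSirt7 (SD, n = 3), and Rgs4 as a percentage of Rgs5 was 10.6 ± 0.415 and 4.57 ± 0.326. In siSirt7 replicate 2, Rgs4 and Rgs5 were the highest and Rgs16 the lowest of their group.

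**Figure D3:**
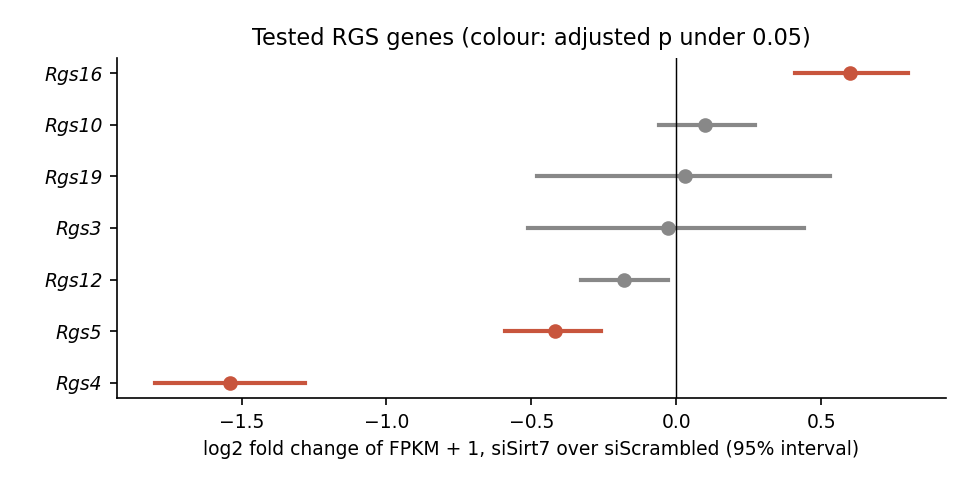
Log2 fold change of FPKM + 1 (siSirt7 over siScrambled) for the 7 RGS genes averaging 1 FPKM or more; points are estimates and lines 95% intervals from the limma fit, with called genes in red. Rgs4 lies at -1.54, Rgs5 at -0.42 and Rgs16 at 0.60.

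Rgs3, a longer R4 member with several isoforms, was at 8.08, 5.50 and 6.26 FPKM in siScrambled replicates 1, 2 and 3 and at 7.31, 7.40 and 4.73 FPKM in siSirt7 replicates 1, 2 and 3. The groups overlapped, and the log2 fold change was -0.03 (95% interval -0.51 to 0.44). Rgs2, which prefers Gq and is a target of the cGMP-dependent kinase Prkg1, was barely measured, at 0.40, 0.49 and 0.59 FPKM in siScrambled replicates 1, 2 and 3 and at 0.55, 0.51 and 0.60 FPKM in siSirt7 replicates 1, 2 and 3. It entered the table through the siSirt7 mean of 0.552 FPKM, just above 0.5, while the siScrambled mean of 0.497 FPKM was just below.

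Rgs10 and Rgs12 belong to the R12 subfamily, which acts on Gi. Rgs10, the smaller protein, was at 33.84, 38.86 and 36.70 FPKM in siScrambled replicates 1, 2 and 3 and at 39.79, 36.71 and 41.17 FPKM in siSirt7 replicates 1, 2 and 3. The groups overlapped, with a log2 fold change of 0.10 (95% interval -0.06 to 0.27). Rgs12, a multidomain scaffold, was at 6.30, 6.29 and 6.16 FPKM in siScrambled replicates 1, 2 and 3 and at 5.55, 5.15 and 5.56 FPKM in siSirt7 replicates 1, 2 and 3. The groups were apart, but the log2 fold change of -0.18 (95% interval -0.33 to -0.03) was not called.

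Rgs17 and Rgs19 belong to the RZ subfamily, which acts on Gz and Gi. Rgs19, also named GAIP, was at 16.98, 15.17 and 22.89 FPKM in siScrambled replicates 1, 2 and 3 and at 22.67, 19.49 and 14.20 FPKM in siSirt7 replicates 1, 2 and 3. These groups overlapped widely, and the log2 fold change of 0.03 had a 95% interval of -0.48 to 0.53. Rgs17 was at 0.84, 0.58 and 0.50 FPKM in siScrambled replicates 1, 2 and 3 and at 1.08, 1.13 and 1.34 FPKM in siSirt7 replicates 1, 2 and 3. These groups were apart, at a level too low for the fit used here, and without the filter on low values Rgs17 was called higher.

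Summed over the 9 genes, RGS FPKM was 354, 366 and 368 in siScrambled replicates 1, 2 and 3 and 279, 308 and 279 in siSirt7 replicates 1, 2 and 3. Rgs5 made up 70.5 ± 1.13% of that sum in siScrambled and 66.2 ± 2.69% in siSirt7 (SD, n = 3). Without Rgs5 the sums were 104, 104 and 113 FPKM in siScrambled replicates 1, 2 and 3 and 102, 96.1 and 94.2 FPKM in siSirt7 replicates 1, 2 and 3, which lie close together without overlapping.

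The number of listed transcripts differed between the genes. Rgs4, Rgs16, Rgs2, Rgs3 and Rgs17 had 1 listed transcript each, against 2, 1, 2, 8 and 4 annotated protein-coding transcripts. Rgs5 had 2, of which Rgs5-201 made up 99.3% of the gene in both groups. Rgs10 had 2, of which Rgs10-201 made up 96.9% in siScrambled and 95.8% in siSirt7. Rgs12 had 6 and Rgs19 had 5, and their values moved between transcripts from library to library.

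Rgs12-201, the listed Rgs12 transcript with the most upstream start, was at 4.16, 1.71 and 3.81 FPKM in siScrambled replicates 1, 2 and 3 and at 1.26, 1.6 and 1.45 FPKM in siSirt7 replicates 1, 2 and 3. It made up 51.7% of Rgs12 in siScrambled and 26.5% in siSirt7. Rgs12-207 was listed at 0, 1.5 and 0 FPKM in siScrambled replicates 1, 2 and 3 and at 1.25, 1.13 and 1.03 FPKM in siSirt7 replicates 1, 2 and 3, so siScrambled replicate 2 resembled the siSirt7 libraries in both transcripts. Rgs19-205 was listed at 0, 0 and 5.56 FPKM in siScrambled replicates 1, 2 and 3 and at 5.87, 0 and 0.77 FPKM in siSirt7 replicates 1, 2 and 3. Rgs19-202, the most abundant Rgs19 transcript, was at 9.21, 10.41 and 10.50 FPKM in siScrambled replicates 1, 2 and 3 and at 10.67, 11.77 and 4.54 FPKM in siSirt7 replicates 1, 2 and 3. Transcripts of a gene can share sequence, and a listed 0 can be a failed estimate. How much sequence these transcripts share was not measured. Neither Rgs12-201, the only Rgs12 transcript abundant enough to be tested, nor any of the 5 Rgs19 transcripts was called.

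**Figure D4:**
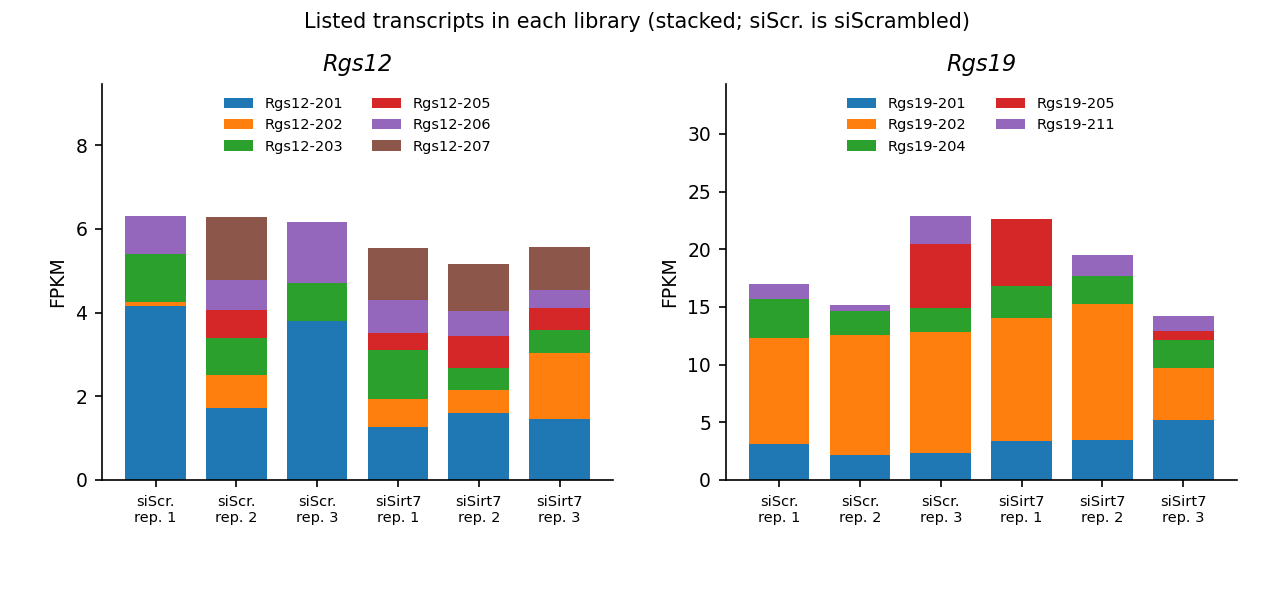
FPKM of the listed transcripts of Rgs12 (left) and Rgs19 (right), stacked for each of the 3 siScrambled and 3 siSirt7 libraries. The Rgs12 totals lie between 5.15 and 6.30 FPKM while their makeup differs between libraries, and Rgs19-205 appears at 5.56 and 5.87 FPKM in 1 library of each group.

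On GRCm38, 4 of the genes lie on chromosome 1. Rgs5 (chr1:169655501-169695813, plus strand) and Rgs4 (chr1:169741477-169747642, minus strand) converge, with 45663 bases between them. Rgs16 (chr1:153740349-153745468, plus strand) and Rgs2 (chr1:143999338-144004161, minus strand) lie further off on the same chromosome. Rgs19 is on chromosome 2, Rgs3 on 4, Rgs12 on 5, Rgs10 on 7 and Rgs17 on 10.

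The 250 bases before the start of Rgs4, Rgs5 and Rgs16 are shown because these are the called genes, from RefSeq on GRCm38.p6, 5' to 3' on the strand of the gene, with motif matches in capitals.
Rgs4, chr1:169747643-169747892, minus strand: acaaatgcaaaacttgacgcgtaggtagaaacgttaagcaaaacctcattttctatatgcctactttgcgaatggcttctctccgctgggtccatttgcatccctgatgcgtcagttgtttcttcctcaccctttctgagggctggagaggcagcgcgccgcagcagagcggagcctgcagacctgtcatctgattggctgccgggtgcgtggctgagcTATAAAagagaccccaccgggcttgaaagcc
Rgs5, chr1:169655251-169655500, plus strand: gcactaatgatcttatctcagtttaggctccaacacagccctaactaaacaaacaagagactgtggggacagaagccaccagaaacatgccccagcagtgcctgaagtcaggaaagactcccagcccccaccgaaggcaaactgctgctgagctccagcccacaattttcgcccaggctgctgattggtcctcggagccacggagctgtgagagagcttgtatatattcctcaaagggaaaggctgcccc
Rgs16, chr1:153740103-153740352, plus strand: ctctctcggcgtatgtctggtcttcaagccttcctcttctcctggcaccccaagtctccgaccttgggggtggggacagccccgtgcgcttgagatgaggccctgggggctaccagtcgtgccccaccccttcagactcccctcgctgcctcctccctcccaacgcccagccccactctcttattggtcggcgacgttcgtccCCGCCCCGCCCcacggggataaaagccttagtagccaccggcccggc

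Rgs4 holds the TATA box TATAAA with its first base 31 bases before the start, at -31. Rgs16 holds GGGCGG on the opposite strand at -47 and -42, as CCGCCC, in matches that overlap by 1 base, and Rgs5 holds none of the motifs searched. The motifs, chosen after the values were seen and searched on both strands, were TATAAA (in 12.4% of 32851 mouse promoters of this length), the AP-1 site TGACTCA (4.46%), the cAMP response element TGACGTCA (1.55%), the E-box CACGTG (6.02%), the antioxidant response element core TGACNNNGC (10.2%), the CArG box (1.47%) and GGGCGG (32.7%). A match is a description of the letters and not a binding site.

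The genes whose profile over the 6 libraries was nearest to that of Rgs4, by the root mean square difference of centred log2 values, were Parp8 (0.099), Pxdn (0.162), Ccnd1 (0.165), Sgk3 (0.172) and Rad54b (0.178). These 5 genes went from 9.76 to 2.97, 38.0 to 14.8, 54.8 to 18.8, 5.06 to 1.55 and 3.10 to 0.558 FPKM by group mean. A near profile here means mainly a fall of like size.

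The partners of RGS proteins were followed in lists of 174 genes, of which 127 were in the table and 116 were tested. In the limma fit 16 rose, 17 fell and 83 were not called, which is 28.4% called against 25.2% of all tested genes. Their median log2 fold change was -0.01, against -0.005 over all tested genes. Of 14 further RGS family genes only Rgs7bp, the gene of a protein that binds R7 RGS proteins, was in the table, below the level tested, at group means of 0.504 and 0.155 FPKM.

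**Figure D5:**
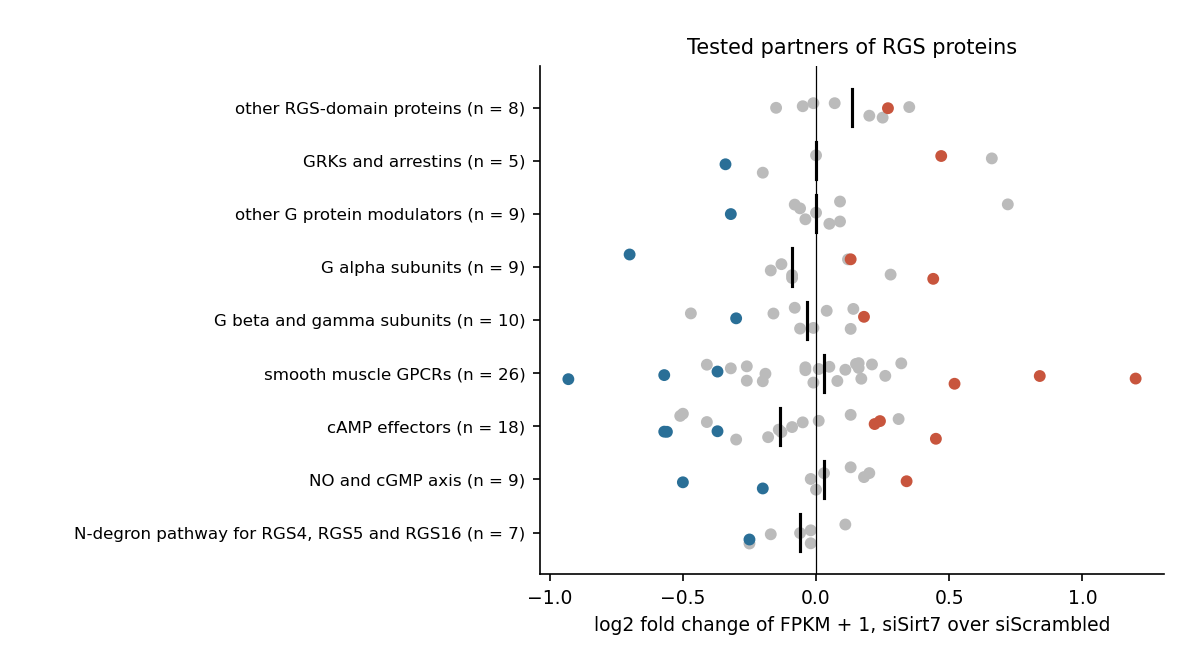
Log2 fold change of FPKM + 1 (siSirt7 over siScrambled) of the tested genes in 9 lists of RGS partners, with called genes in red (higher) or blue (lower), uncalled genes in grey and list medians as black lines; n is the number tested. List medians lie between -0.13 and 0.13, and F2r at 1.20 is the highest point.

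RGS proteins act on G alpha subunits, of which 9 of 13 were tested, with 2 higher, 1 lower and a median log2 fold change of -0.09. Gnai1, an inhibitory subunit and a substrate of most R4 and R12 members, fell from 13.3 ± 0.775 to 7.84 ± 0.329 FPKM (SD, n = 3), with a log2 fold change of -0.70 (SE 0.07, limma adjusted p = 0.00108). Gnao1, a related subunit, rose from 2.87 to 4.25 FPKM (adjusted p = 0.0194), a call that ended without siScrambled replicate 1 or 2 or siSirt7 replicate 1 or 2 (limma adjusted p 0.0566 to 0.0630). Gnai3, the most abundant of these 3, rose from 56.6 to 62.2 FPKM (adjusted p = 0.0426), a call that ended without any 1 of the 6 libraries (limma adjusted p 0.0599 to 0.124).

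Of 15 genes for G beta and gamma subunits 10 were tested, with 1 higher and 1 lower. Gng12 rose from 90.7 to 103 FPKM (limma adjusted p = 0.0143), a call that ended with quantile normalization (adjusted p = 0.0505). Gnb5, the partner of R7 RGS proteins, fell from 8.92 to 7.06 FPKM (limma adjusted p = 0.0313), a call that held without siSirt7 replicate 1 (adjusted p = 0.0408) and ended without any other library (0.0634 to 0.0905).

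Of 49 receptors 26 were tested, with 3 higher, 3 lower and a median of 0.03. F2r, the thrombin receptor PAR1, rose from 93.1 ± 0.885 to 216 ± 1.74 FPKM (log2 fold change 1.20, SE 0.03, limma adjusted p = 3.66e-05), the only tested gene of the lists with a change of at least 2-fold on this scale. Ptgir, the prostacyclin receptor, rose from 1.03 to 2.63 FPKM (adjusted p = 0.00130). Calcrl, a receptor subunit for adrenomedullin and CGRP, fell from 2.32 to 0.742 FPKM (adjusted p = 0.00274), and Adra1d, an alpha-1 adrenergic receptor, from 4.70 to 2.84 FPKM (adjusted p = 0.00693). P2ry6 rose and Ackr3 fell (limma adjusted p = 0.0291 and 0.0183), both named after their values were seen. The call of P2ry6 held only without siScrambled replicate 2, with adjusted p of 0.0571 to 0.0880 without any other library, and that of Ackr3 ended without siScrambled replicate 1 or 2 or siSirt7 replicate 1 or 3 (0.0551 to 0.0629).

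Receptor kinases and arrestins, which silence receptors upstream of the G protein, had 5 tested genes of 7. Grk5 rose from 28.8 ± 0.640 to 40.5 ± 1.56 FPKM (limma adjusted p = 0.00102), Grk6 fell from 17.1 to 13.3 FPKM (adjusted p = 0.00686), and 3 were not called. Among 8 tested genes for other proteins with an RGS domain, Akap10, an anchor of protein kinase A, rose from 6.25 to 7.71 FPKM (adjusted p = 0.0479) and none fell, at adjusted or unadjusted p under 0.05. The Akap10 call ended without any 1 of the 6 libraries (adjusted p 0.0558 to 0.127). Among 9 tested genes for other G protein modulators, Gpsm2 fell from 9.18 to 7.15 FPKM (limma adjusted p = 0.0146) and none rose, with 2 higher at an unadjusted p under 0.05.

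Downstream of Gq, Plcb1, a phospholipase C that Gq activates, fell from 2.18 ± 0.183 to 0.844 ± 0.0882 FPKM (log2 fold change -0.78, SE 0.10, limma adjusted p = 0.00292). Itpr2, an IP3 receptor, rose from 3.86 to 5.34 FPKM (adjusted p = 0.0131). Named after their values were seen, Plcb3 also rose (limma adjusted p = 0.0170) and Prkca and Plcb4 also fell (0.00926 and 0.0292). The call of Plcb3 ended without siScrambled replicate 1 or 2 (0.0587 and 0.0568) and that of Plcb4 without any siScrambled replicate (0.0773 to 0.0840).

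The cAMP list had 18 tested genes of 21, with 3 higher, 3 lower and a median of -0.13. Adcy5, an adenylyl cyclase inhibited by Gi, fell from 4.71 to 2.86 FPKM (limma adjusted p = 0.00434), and Prkaca, a catalytic subunit of protein kinase A, from 26.4 to 20.2 FPKM (adjusted p = 0.00370). The regulatory subunit genes Prkar1a and Prkar2b rose from 162 to 189 and from 9.65 to 13.7 FPKM (adjusted p = 0.00443 and 0.0187). The Prkar2b call ended without siScrambled replicate 1 or 2 or siSirt7 replicate 3 (adjusted p 0.0557 to 0.0622). Named after their values were seen, Adcy9 fell and Adcy3 rose (limma adjusted p = 0.00510 and 0.0458), and the Adcy3 call ended without any 1 of the 6 libraries (0.0570 to 0.126).

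Nitric oxide and cGMP act on RGS2 through Prkg1, and this list had 9 tested genes of 11, with 1 higher and 2 lower. Gucy1b3, a subunit of soluble guanylyl cyclase, fell from 15.2 to 10.5 FPKM (limma adjusted p = 0.00179). Pde5a, a cGMP phosphodiesterase, rose from 22.4 to 28.6 FPKM (adjusted p = 0.00286). Prkg1 fell from 15.5 to 13.4 FPKM (adjusted p = 0.0441), a call that ended without any 1 of the 6 libraries (0.0605 to 0.126).

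RGS4, RGS5 and RGS16 proteins are degraded through the arginine branch of the N-degron pathway, whose 7 genes were all tested. Ate1, the arginyl transferase, fell from 21.4 to 17.7 FPKM (limma adjusted p = 0.0151, and 0.0502 and 0.0512 without siScrambled replicates 2 and 3). None rose, at adjusted or unadjusted p under 0.05, and 3 were lower at an unadjusted p under 0.05. Protein levels were not measured.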

How the data were processed

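RNA of mouse primary vascular smooth muscle cells was sequenced in 6 libraries made with an mRNA kit, per the labels' protocols. Per the submitters' processing notes, the authors used HISAT2 and GRCm38 (mm10). The deposited values are FPKM per transcript, and the sources used here name no program for that step. Low values showed no clear steps of whole reads, with a smallest mean distance from whole numbers of 0.177 to 0.202, against 0.25 if not whole. Estimates split between transcripts could hide such steps, so the check cannot decide. Depth is therefore unknown and no count model was run. FPKM of the transcripts of each of 11808 genes were added up, and the 10854 genes averaging 1 FPKM or more were tested on log2(FPKM + 1) in limma 3.58.1 (R 4.3.3), using its trend and robust options and Benjamini-Hochberg adjustment over all of them at 0.05. Fold changes on this scale understate the change of low genes. The fit was tested on simulated data. The RGS genes, the lists and the words were chosen with earlier results of these data known. Named genes were all RGS genes, Sirt7, up to 2 called genes per direction and list by smallest adjusted p, and the 5 nearest profiles. A called partner gene outside this rule is said to be named after its values were seen. Counts over all partner genes include 1 list that is not reported here, with 2 genes that the rule takes. Transcript positions matched GENCODE vM21 for 21837 of 23242 transcripts (94.0%), all RGS transcripts included, and 3' UTRs of at least 50 bases were searched. Alternatives covered scaling, filter, pseudocount, variance model, replicate block, single transcripts and each library left out. Python 3.11.15, numpy 2.4.6, pandas 2.3.3 and matplotlib 3.10.9 were used.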

Additional observations from a re-analysis of the deposited data

How the results depend on the processing

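Under the 15 alternatives, Rgs4, Rgs5 and Rgs16 stayed called in their directions, with log2 fold changes of -1.65 to -1.44, -0.50 to -0.37 and 0.55 to 0.67. Rgs3, Rgs10, Rgs12 and Rgs19 stayed uncalled, and the sign of Rgs3 and Rgs19 changed between alternatives (-0.14 to 0.15 and -0.23 to 0.21). With no filter on low values, 2 RGS genes were called higher in place of 1, the added gene being Rgs17. Rgs12 moved to -0.74 when its most abundant transcript replaced the gene sum. Testing single transcripts, with a gene counted where any of its transcripts was called, gave 1493 called genes in place of 2736. Of these, 780 were higher and 729 lower, in place of 1380 and 1356 (16 genes had transcripts called in both directions). The same count gave 19 partner genes (9 higher, 10 lower) in place of 33. Leaving out 1 library, which leaves fewer samples, gave 1853 to 2222 called genes, 953 to 1105 higher and 900 to 1117 lower, with 900 without siScrambled replicate 2. It gave 21 to 27 called partner genes, 7 to 12 higher and 13 to 16 lower, with 21 and 7 without siScrambled replicate 1 and 10 higher without siScrambled replicate 2.

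Libraries with the same replicate number did not deviate together (correlations 0.007, 0.033 and -0.015). No pairing by number was thus seen, though 3 libraries a group cannot exclude it. With the replicate block 1927 genes were called, and 24 partner genes, 10 higher and 14 lower, and the calls of Akap10, Gnai3, Prkg1, Gnao1, Gnb5, Prkar2b and Gng12 ended (limma adjusted p 0.0519 to 0.115). Of the 23 partner genes that the rule names and the text gives, 11 stayed called wherever they were tested and none changed sign. Quantile normalization ended the calls of Gnai3 and Gng12 (limma adjusted p 0.128 and 0.0505), limma without its trend and robust options that of Gnai3 (0.0973), median-of-ratios scaling that of Prkg1 (0.0505) and no filter that of Akap10 (0.0501). For named genes, the single-transcript setting used only the most abundant transcript of each. That setting ended the calls of Akap10, Gnai3, Prkg1, Gnao1, Gnb5, Prkar2b, Ate1, Gng12, Calcrl, Gpsm2, Grk6 and Itpr2 (limma adjusted p 0.0509 to 0.788). The cause was not tested. Scaling factors lay between 0.9996 and 1.0088. Unknown depth, 3 libraries a group and the listing at 0.5 FPKM limit what can be said of Rgs2 and Rgs17.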
